A study of Homo sapiens with 2 samples.

Results

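The genes described here are 35 regulators and target genes of the tumour suppressor p53. They were taken by symbol from a count table of 63677 genes, as a list chosen with earlier results of these data known. All 35 matched 1 row each, and 34 of them reached a mean level of 1 CPM (read counts scaled for the size of each library), the minimum for a gene to count as measured. The list holds 5 feedback regulators, 8 genes of cell cycle arrest, 11 of apoptosis, 4 of DNA repair, 5 of metabolism and mitochondria, and 2 secreted proteins. RNA came from HGC-27 cells, an established human gastric carcinoma line, collected 48 hours after plasmid transfection with the reagent INTERFERin. One culture received empty pcDNA3.1 and is called control, and the other received pcDNA3.1-lncPSCA, which drives expression of the long non-coding RNA lncPSCA. Each group is 1 culture of the same line and 1 library, so every difference below is between 2 libraries, carries a counting interval only and has no replicate check. Both cultures were exposed to plasmid DNA and transfection reagent, and no untransfected culture was analysed here. The p53 status of the cells is not given in the sources used here.

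p53 is a transcription factor that is kept scarce by the ubiquitin ligase MDM2 and accumulates after DNA damage and other stress. Its target genes stop the cell cycle, repair DNA, alter metabolism or trigger apoptosis, and some of them, MDM2 included, shut p53 down again. In gastric and other epithelial tumours this circuit is a common point of loss.

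The libraries held 21552098 counts (control) and 23016646 counts (lncPSCA). Gastric epithelial markers were low in both, and 5 of the 8 were below the minimum level. KRT18 had 4 and 0 reads, KRT19 had 1 and 0, EPCAM had 7 and 7, MUC5AC had 4 and 3, and TFF1 had none. The other 3 of the 8 markers passed the 1 CPM minimum at low levels: KRT8 had 66 and 58 reads (3.13 and 2.47 CPM), CLDN4 had 39 and 46, and CDH1 had 26 and 20. Of 4 mesenchymal markers, vimentin (VIM) was at 2601 and 2594 CPM, FN1 at 26.3 and 61.6, and ZEB1 at 21.5 and 39.1. The fourth, CDH2, had only 4 and 6 reads. The collagen genes COL1A1 and COL3A1 were at 1112 and 1042 CPM and at 1557 and 1947 CPM. ACTA2 was at 37.5 and 28.1 CPM, and the endothelial gene VWF had 5 and 13 reads. The identity of the cultures was not checked beyond these markers. The 8 epithelial markers summed to 6.97 and 5.70 CPM, and the 5 blood cell markers to 2.09 and 2.72 CPM, with CD3E and HBB at 0 reads in both. The endothelial marker PECAM1 also had no reads in either library. None of the 8 epithelial markers exceeded 3.13 CPM in either library.

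Some target genes carry a match to the p53 consensus decamer, the repeated unit of a p53 binding site, close to their transcription start. A window from 250 bases before to 50 bases after each RefSeq start (GRCh38.p14) was read for 31 of the 35 genes. GADD45A, TP53INP1, PHLDA3 and RRM2B had no entry. An exact decamer on either strand stood in 7 of the 31 (22.6%), against 8.06% of 27303 genes with a window, counting a gene when any of its starts had one. The matches are shown because they separate the genes by a feature of their promoters that does not depend on the measured values. Each line gives up to 30 bases on the gene's strand, 5′ to 3′, with the decamer in capitals.
RPS27L (chr15:63157517-63157546, minus strand): ggcctagagcAGACAAGCCCgccccgccgc
PLK2 (chr5:58460199-58460228, minus strand): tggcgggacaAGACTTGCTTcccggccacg
EI24 (chr11:125569457-125569486, plus strand): cgtgcggcccGGGCATGCCCagtgcgggcg
AEN (chr15:88621296-88621325, plus strand): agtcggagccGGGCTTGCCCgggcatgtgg
DDB2 (chr11:47214975-47215003, plus strand): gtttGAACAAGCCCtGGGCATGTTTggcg
SESN1 (chr6:109009018-109009047, minus strand): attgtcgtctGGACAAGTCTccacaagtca
FDXR (chr17:74872986-74873015, minus strand): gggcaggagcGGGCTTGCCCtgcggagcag

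DDB2 was the only one of the 7 with 2 decamers side by side, and its pair lies just after 1 of its 2 annotated starts, while the others lie before a start. The interferon-stimulated response element, searched as GAAANNGAAA on both strands, stood in 1 of the 31 genes (3.23%), against 4.38% of all genes with a window. That gene was BBC3, with 2 overlapping matches after the start, shown in capitals.
BBC3 (chr19:47232620-47232649, minus strand): acaatgaGAAACTGAAAAAGAAAcggaatg

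The cyclic AMP response element TGACGTCA, read the same way, stood in the PPM1D window alone, against 2.25% of all genes, and the amino acid response element TGATGNAA in the PLK3 window alone, against 4.46%. These are matches of letters and not measured binding.

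Most of the 34 measured genes stood at similar levels in the lncPSCA and control libraries. A gene was called higher or lower when its ratio on the pseudocount scale reached 2-fold and its exact 95% counting interval lay wholly beyond 1.5-fold. By that rule 1 gene, the cell cycle inhibitor gene CDKN1A, was higher, none was lower and 33 were neither. The background over the 15440 genes that passed the level minimum was 3.02% called higher and 0.596% called lower. The 1 gene of 34 is 2.94%, close to that background. The median log2 ratio of lncPSCA over control was 0.06 for the 34 genes, with quartiles of -0.28 and 0.39. For all measured genes the median was -0.02, with quartiles of -0.26 and 0.28. Of the 34, 18 had a log2 ratio above 0 and 16 below. Summed over the 35 genes, the level was 1653 CPM without and 1608 CPM with lncPSCA.

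A looser rule, a ratio of at least 1.5-fold with a counting interval that excludes 1, described more of them. By it 5 genes were higher (14.7%), CDKN1A, PMAIP1, BBC3, SFN and SPATA18, against a background of 10.5%. It called 3 genes lower (8.82%), THBS1, ZMAT3 and TRIAP1, against a background of 5.41%. Intervals lay wholly above 1 for 15 genes (44.1%) and wholly below 1 for 13 (38.2%), while 6 spanned 1. The corresponding backgrounds were 27% and 32.1%. A counting interval excludes 1 more readily the more reads a gene has, and these backgrounds were not matched for read number.

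**Figure D1:**
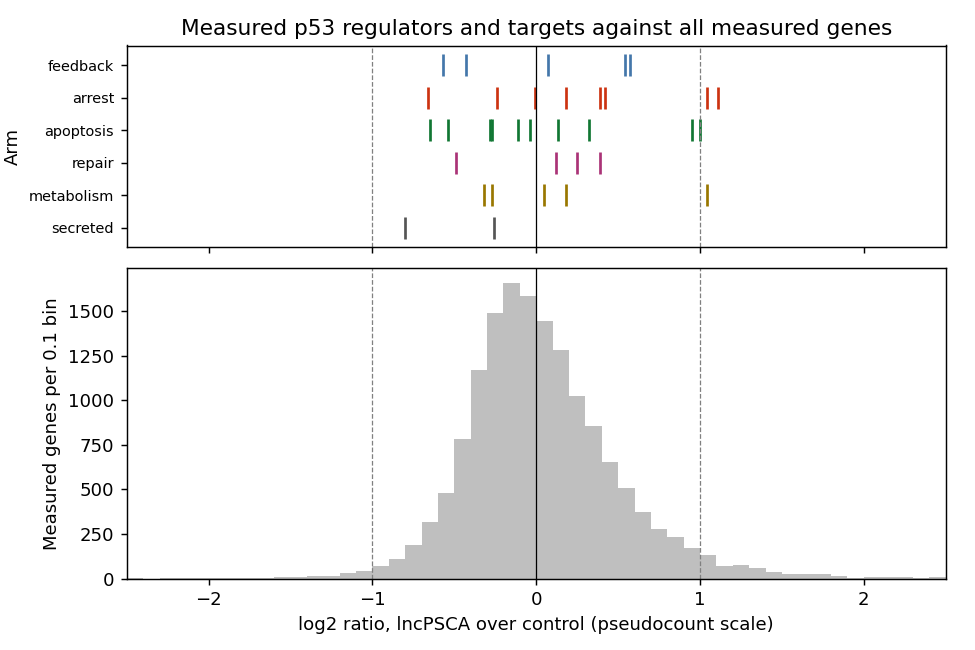
The top panel marks the log2 ratio of lncPSCA over control (x axis, pseudocount scale) for the 34 measured genes by arm, and the lower panel counts all measured genes in bins of 0.1, with 4 genes below and 92 above the plotted range; dashed lines mark 2-fold. The marks spread from -0.80 to 1.11 on both sides of 0, over the same span as the bulk of the histogram.

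Among the arrest genes, CDKN1A (ENSG00000124762) encodes p21, which binds and inhibits cyclin-dependent kinases and is the classical p53 target. It had 315 reads in control and 723 in lncPSCA, or 14.9 and 30.8 CPM. The fold was 2.06 (95% counting interval 1.80 to 2.36), and it ranked 540 by ratio among the 15440 measured genes. With an assumed coefficient of variation of 0.2 between libraries, a spread that was not measured, CDKN1A fell short of the rule and no gene of the list was called. SFN encodes 14-3-3 sigma, which holds back mitotic entry, and it is an epithelial gene. It had only 17 and 42 reads, a fold of 2.22 with an interval from 1.24 to 4.15. PLK2, a polo-like kinase induced by stress, had 2699 and 3932 reads, or 128 and 167 CPM, a fold of 1.31 (1.25 to 1.37). CCNG2, an unconventional cyclin linked to withdrawal from the cycle, had 189 and 282 reads, a fold of 1.34 (1.11 to 1.62). GADD45A, a stress sensor that interferes with CDK1, measured 99.7 and 113 CPM, for a fold of 1.14 (1.07 to 1.20).

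The other arrest genes had folds near or below 1. PLK3, a second stress-linked polo-like kinase, had 129 and 143 reads, a fold of 0.995 (0.779 to 1.27). BTG2, an antiproliferative cofactor of mRNA deadenylation, had 300 and 283 reads, a fold of 0.847 (0.717 to 0.999). ZMAT3, an RNA-binding protein that p53 uses to alter splicing and mRNA stability, had 223 and 157 reads, a fold of 0.632 (0.512 to 0.779). The arrest arm thus ran from a log2 ratio of -0.66 to 1.11, with a median of 0.29 over its 8 genes, and 5 of the 8 lay above 0.

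**Figure D2:**
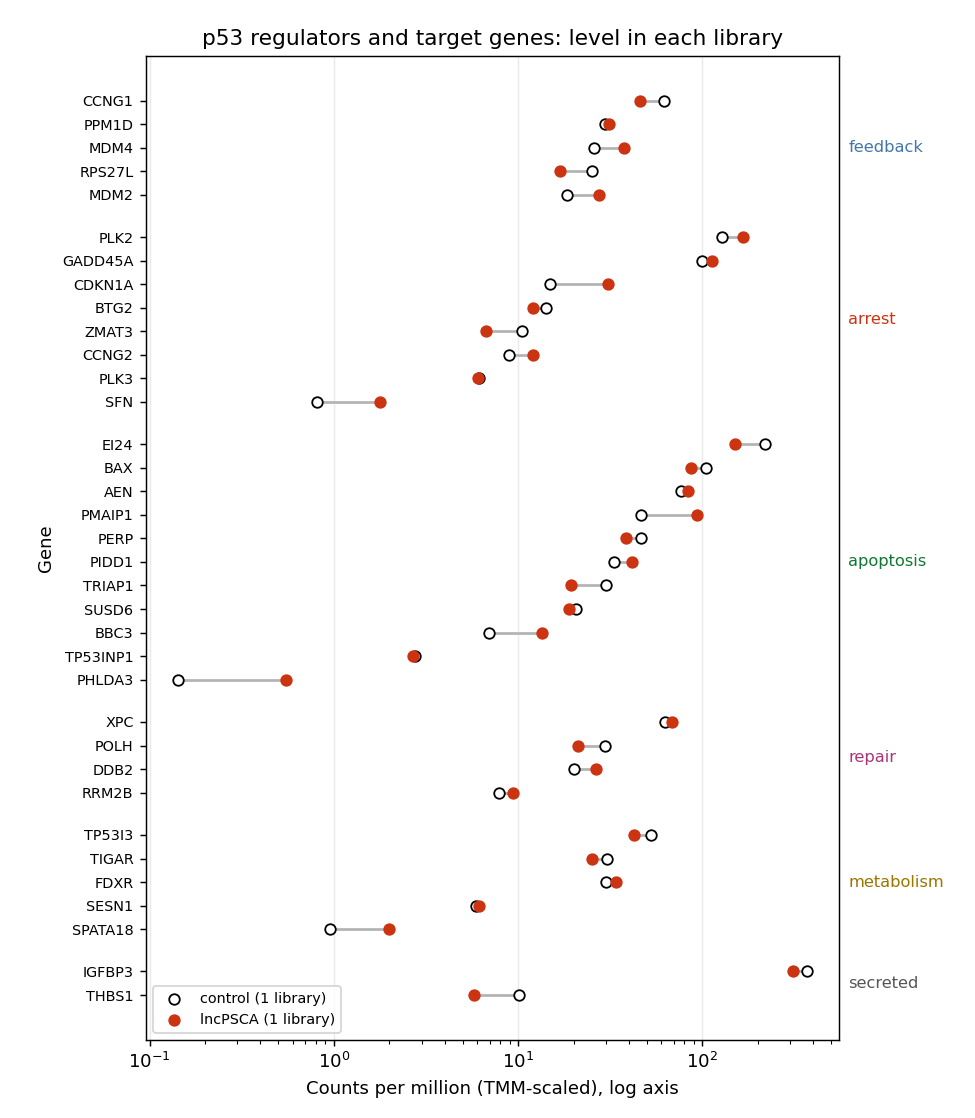
Level of each of the 35 genes (y axis, grouped by arm) in the control library (open circle) and the lncPSCA library (filled circle), in TMM-scaled CPM on a log axis; each point is 1 library. Most pairs nearly touch, while CDKN1A, PMAIP1 and BBC3 show wide gaps at measurable levels, and SFN, SPATA18 and PHLDA3 show wide gaps near or below 1 CPM.

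The apoptosis arm was split. PMAIP1 and BBC3 encode NOXA and PUMA, BH3-only proteins that free BAX and BAK from their inhibitors. PMAIP1 (ENSG00000141682) had 983 reads in control and 2191 in lncPSCA, or 46.6 and 93.2 CPM. Its fold was 2.0 (1.86 to 2.16), and its log2 ratio of 0.9996 on the pseudocount scale left it at the 2-fold limit and just short of the rule. It met the rule with size factors from DESeq2, with total-count scaling and when ratios were centred along mean expression or transcript length. BBC3 (ENSG00000105327) had 147 and 317 reads, or 6.97 and 13.5 CPM, a fold of 1.94 (1.59 to 2.37). It met the rule with total-count scaling and with centring along transcript length. BAX, the pore-forming effector that these proteins release, had 2221 and 2031 reads, or 105 and 86.4 CPM, a fold of 0.821 (0.772 to 0.872).

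PIDD1, the scaffold of the caspase-2 activating complex, had 702 and 979 reads, a fold of 1.25 (1.14 to 1.38). Its annotated exons overlap those of the abundant ribosomal gene RPLP2 on the opposite strand by 107 bases (GENCODE release 29), and RPLP2 had 21980 and 22227 reads. AEN, an apoptosis-enhancing nuclease, measured 76.9 and 83.8 CPM, for a fold of 1.09 (1.02 to 1.17). TP53INP1, a cofactor of p53 in stress and autophagy, had 58 and 63 reads, a fold of 0.975 (0.672 to 1.42). SUSD6, a membrane protein of the DNA damage response, had 433 and 447 reads, a fold of 0.927 (0.810 to 1.06). The intervals of TP53INP1 and SUSD6, which cover counting error only, included 1.

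Of the remaining genes of the arm, 3 had folds below 1 and 1 was too sparse to read. PERP, a desmosomal protein with a role in apoptosis, measured 46.3 and 38.4 CPM, for a fold of 0.830 (0.758 to 0.910). EI24, an endoplasmic reticulum protein with roles in autophagy and growth suppression, had 4629 and 3541 reads, or 219 and 151 CPM, a fold of 0.687 (0.657 to 0.717). TRIAP1, a small mitochondrial protein that protects cells from apoptosis, had 637 and 453 reads, a fold of 0.638 (0.565 to 0.721). PHLDA3, an AKT inhibitor, had 3 reads in control and 13 in lncPSCA, below the minimum level, a ratio of 3.89 with an interval from 1.07 to 21.3. Over the 10 measured genes of the arm the median log2 ratio was -0.07, with 4 above 0 and 6 below.

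**Figure D3:**
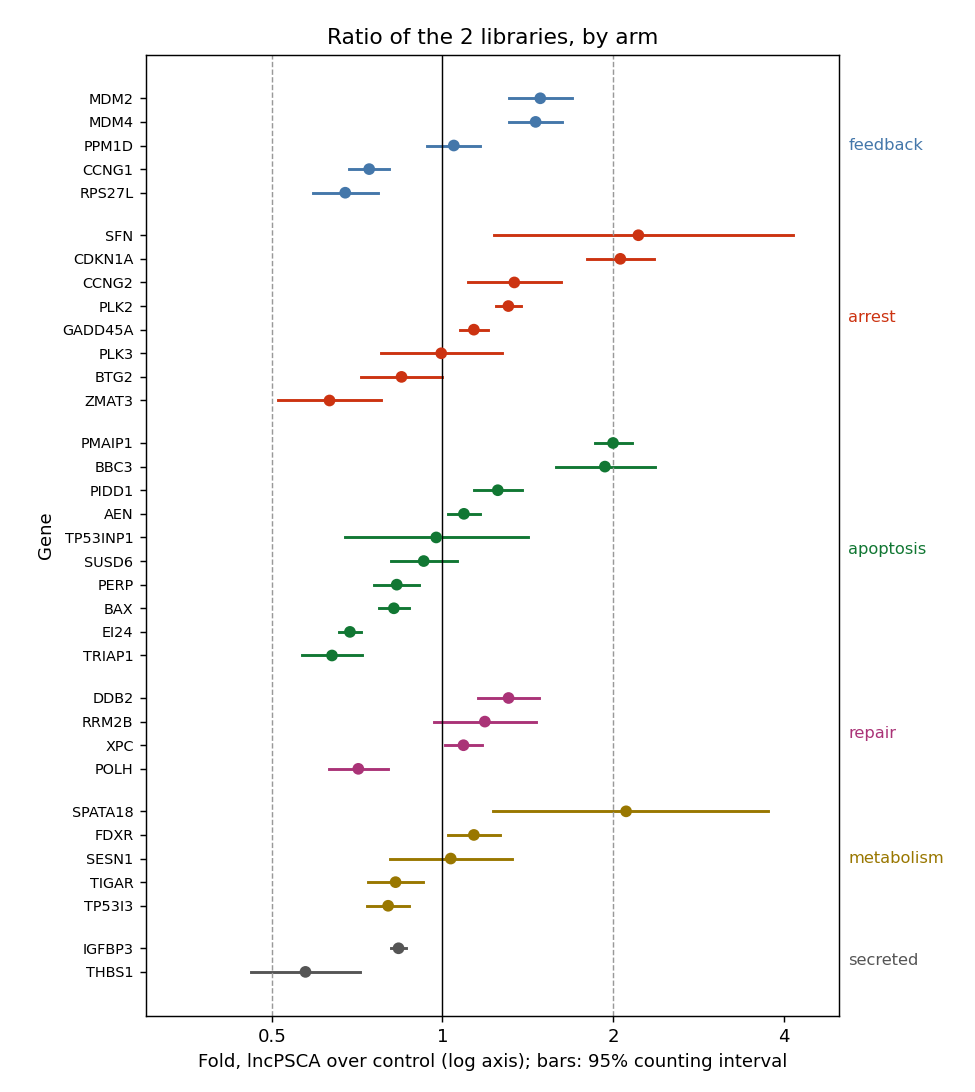
Fold of lncPSCA over control (x axis, log scale) for the 34 measured genes, grouped by arm, with bars for the exact 95% counting interval; the solid line marks 1 and the dashed lines 0.5 and 2. CDKN1A, PMAIP1 and BBC3 sit at about 2-fold with short bars, SFN and SPATA18 at a similar fold with long bars, and THBS1 is the lowest at 0.573.

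None of the feedback regulators met either rule, and MDM2 and MDM4 had the largest folds among them. MDM2, the ubiquitin ligase that degrades p53 and is itself a p53 target, had 389 reads in control and 645 in lncPSCA, or 18.4 and 27.4 CPM, a fold of 1.49 (1.31 to 1.69). MDM4, its partner that binds p53 without degrading it on its own, had 546 and 888 reads, or 25.9 and 37.8 CPM, a fold of 1.46 (1.31 to 1.63). Both have long transcripts, with longest annotated forms of 12633 and 10073 bases, and ratios of all measured genes followed length, with a Spearman correlation of 0.24 across 14993 genes. After centring along transcript length the folds were 1.19 for MDM2 and 1.22 for MDM4, and along mean expression they were 1.49 for each. For the 34 genes together the same correlation was -0.06. It is a description of genes that share both libraries.

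The other feedback genes had folds near or below 1. PPM1D, the WIP1 phosphatase that switches off p53 and its kinases, had 625 and 729 reads, a fold of 1.05 (0.939 to 1.17). CCNG1, a cyclin that recruits a phosphatase to MDM2, had 1302 and 1077 reads, a fold of 0.742 (0.684 to 0.805). RPS27L, a ribosomal protein paralog that affects MDM2 stability, had 529 and 397 reads, a fold of 0.674 (0.590 to 0.769). The 5 feedback genes had a median log2 ratio of 0.07, with 2 intervals above 1, 2 below 1 and 1 that spanned it.

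The DNA repair genes differed little. DDB2, which recognises ultraviolet lesions in chromatin, had 426 and 621 reads, or 20.2 and 26.4 CPM, a fold of 1.31 (1.16 to 1.48). XPC, which starts global nucleotide excision repair, measured 62.8 and 68.4 CPM, for a fold of 1.09 (1.01 to 1.17). Its exons overlap those of LSM3 on the opposite strand by 318 bases, and LSM3 had 2393 and 1306 reads. RRM2B, the p53-inducible ribonucleotide reductase subunit, had 167 and 221 reads, a fold of 1.19 (0.967 to 1.46). POLH, the translesion polymerase eta, had 628 and 497 reads, a fold of 0.710 (0.630 to 0.80). Over these 4 genes the median log2 ratio was 0.18.

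Metabolic and mitochondrial targets were also close to level. SESN1, a sestrin that restrains mTORC1, had 125 and 144 reads, a fold of 1.03 (0.808 to 1.33). TIGAR, a fructose bisphosphatase that diverts glucose from glycolysis, had 644 and 593 reads, a fold of 0.826 (0.738 to 0.925). FDXR, the mitochondrial ferredoxin reductase, had 635 and 804 reads, a fold of 1.14 (1.02 to 1.26). TP53I3, a quinone oxidoreductase tied to reactive oxygen species, had 1116 and 997 reads, a fold of 0.802 (0.735 to 0.874). SPATA18, a mitochondrial quality control protein, had 20 and 47 reads, or 0.948 and 2.0 CPM, a fold of 2.11 with an interval from 1.23 to 3.76. Apart from the sparse SPATA18, the folds of this arm lay between 0.802 and 1.14.

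Neither secreted target met the 2-fold rule, and both had a fold below 1. THBS1, the antiangiogenic matrix protein thrombospondin-1, had 213 reads in control and 136 in lncPSCA, or 10.1 and 5.79 CPM, a fold of 0.573 (0.459 to 0.714). It had the lowest log2 ratio of the 34 genes, -0.80, and it met the looser rule only. Its log2 ratio became -0.99 after centring along transcript length. IGFBP3, which binds insulin-like growth factors, had 7809 and 7278 reads, or 370 and 310 CPM, a fold of 0.836 (0.810 to 0.864). Its log2 ratio of -0.26 became -0.18 after centring along transcript length and -0.11 after centring along mean expression. Scaled by annotated exon length, IGFBP3 was also the most abundant of the 35 in control, at 81.0 CPM per kilobase, ahead of EI24 at 61.7 and GADD45A at 48.2 CPM per kilobase. CDKN1A stood at 4.90 CPM per kilobase in control and 10.1 in lncPSCA, below PMAIP1 at 20.9 and 41.7 CPM per kilobase.

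The measured genes with the largest ratios were all among the 24 without a decamer, which are most of the 31 genes with a window. CDKN1A, PMAIP1, BBC3, SFN and SPATA18 had no decamer in the window read, and neither did MDM2 at any of its 4 starts. The 7 genes with a decamer had a median log2 ratio of 0.13, ranging from -0.57 for RPS27L to 0.39 for DDB2 and for PLK2, and 5 of them were above 0. The 24 genes with a window and no decamer had a median of -0.06 and ranged from -0.80 to 1.11, with 11 above 0. The absence of a match says only that these letters are not in the window.

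Other genes of the pathway were read from lists that hold none of the 35. Among 30 further p53 target genes, 27 were measured, 3 were higher, none was lower and 24 were neither, with a median log2 ratio of 0.13. Over all measured genes 3.02% were called higher and 0.596% lower. The 3 were SESN2, the stress-responsive sestrin, at 35.1 and 123 CPM, DDIT4, an mTORC1 inhibitor, at 253 and 1469 CPM, and the cytokine gene GDF15 at 17.9 and 36.2 CPM. SESN1, the sestrin of the p53 list, was at 5.92 and 6.13 CPM beside them. The death receptor genes FAS and TNFRSF10B were neither, with folds whose intervals ran from 1.24 to 1.62 and from 1.03 to 1.16. That these 3 were higher was already known when the lists were drawn up.

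Of 23 upstream kinases, cofactors and relatives of p53, 1 was higher, none was lower and 22 were neither, with a median log2 ratio of 0.22. The background over all measured genes was again 3.02% called higher. The higher gene of the 23 was TP63, which encodes the p53 relative p63. It had 22 reads in control and 96 in lncPSCA (interval of the fold 2.44 to 6.54). The other relative, TP73, had 100 and 181 reads (1.27 to 2.10). ATM, the kinase that signals DNA breaks to p53, had 438 and 962 reads and a log2 ratio of 0.98, just short of the rule. Its longest annotated transcript has 13147 bases. The part of transcript length in the ratio of ATM was not tested, and no ratio centred along length is given for it. CDKN2A, the locus that also encodes the MDM2 inhibitor ARF, was abundant in both, at 450 and 419 CPM.

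p21 represses cell cycle genes through the DREAM complex, so 24 genes of that kind were set beside CDKN1A. Of these, 1 was higher, none was lower and 23 were neither, and 17 had a log2 ratio below 0. Over all 15440 measured genes 3.02% were called higher, and 8006 had a log2 ratio below 0. The median of the 24 was -0.25, against -0.02 for all measured genes. AURKA, a mitotic kinase, had 2222 and 1421 reads, a fold of 0.574, and BIRC5, the mitotic protein survivin, had 4636 and 3126 reads, a fold of 0.605. Neither met the 2-fold rule. The higher gene was the kinetochore gene CENPF, with 599 and 1763 reads, and TOP2A, a topoisomerase, was at 182 and 295 CPM. The longest annotated transcripts of AURKA and BIRC5 have 2248 and 2711 bases, and those of CENPF and TOP2A 10307 and 5758. Not all of the list was ordered by length in this way. PLK1, with 4135 bases, had a log2 ratio of -0.50, and E2F1, with 2503 bases, had 0.17. Ratios of all measured genes rose with length and fell with mean level (Spearman correlations 0.24 and -0.23). The part of these trends in the ratios of the 24 was not tested.

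**Figure D4:**
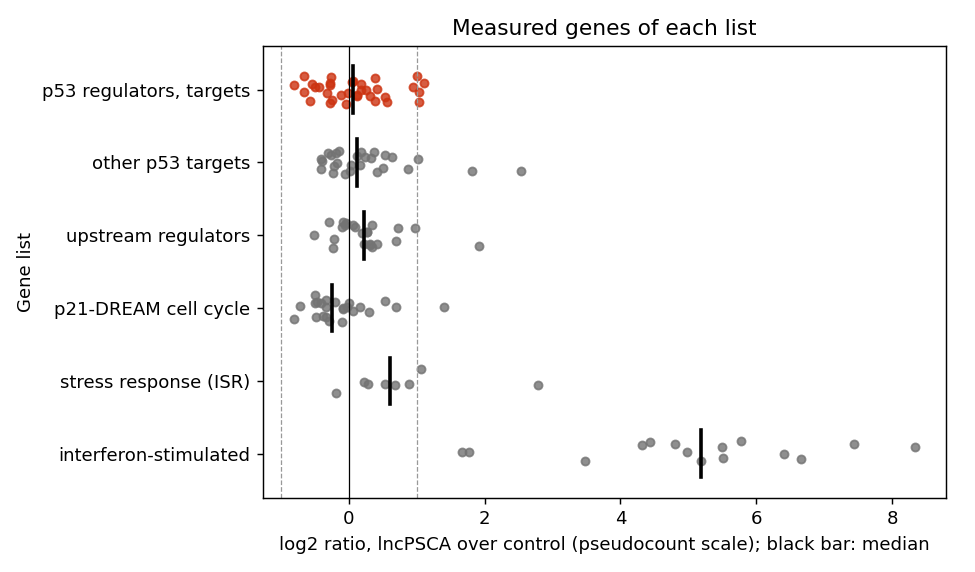
The log2 ratio of lncPSCA over control (x axis, pseudocount scale) for each measured gene of 6 lists (y axis), with a black bar at each median and dashed lines at 2-fold; points are spread vertically at random for legibility. The p53 regulators and targets centre on 0.06 and the interferon-stimulated genes on 5.18.

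Genes of 2 other responses were read as well, on lists also chosen with earlier results of these data known. All 15 interferon-stimulated genes of a short list were higher, with a median log2 ratio of 5.18 and a summed level of 271 CPM without and 6973 CPM with lncPSCA. Among them ISG15 was at 51.0 and 1615 CPM, IFI6 at 58.1 and 1252, and OAS3 at 20.9 and 943. Of 8 genes of the integrated stress response, 2 were higher, 6 were neither and 7 were above 0, with a median of 0.61. Over all measured genes 3.02% were called higher and 48.15% had a log2 ratio above 0. CHAC1, a glutathione-degrading enzyme, was at 17.3 and 120 CPM and the transcription factor gene ATF3 at 58.8 and 123 CPM. The more abundant ATF4 and HSPA5 were neither, with folds of 1.22 (1.19 to 1.251) and 0.874 (0.8545 to 0.8938). The part of either response in the ratios of CDKN1A, PMAIP1 and BBC3, or in those of SESN2, DDIT4 and GDF15, was not tested.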

How the data were processed

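The authors deposited raw read counts in 1 table whose rows are Ensembl genes and whose columns are the 2 libraries. TopHat2, HTSeq and hg19 are named, without versions, in the submitters' processing notes. Annotation release, strand setting and read filters were not given in these sources. Without the strand setting, it is not known whether reads over an antisense overlap were counted for a gene or left out. Such an overlap of exons is present for 10 of the 35 genes in GENCODE release 29. Symbols matched 52181 of 63677 identifiers (81.9%).

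From the counts, library sizes were scaled by TMM (edgeR 4.0.16, factors 0.979 and 1.02) over all genes. CPM, log2 ratios with a pseudocount of 1, and exact 95% Clopper-Pearson intervals (scipy 1.17.1) followed. Folds were taken from CPM, with no pseudocount. Intervals cover counting error only. With 1 library per group no test was possible and no p-value is given. FAS, TNFRSF10B, TP73, ATM, CDKN2A, AURKA, BIRC5, TOP2A, PLK1, E2F1, ATF4 and HSPA5 were chosen after their values were seen. All 35 genes are named, and the remaining genes of other lists were named by a rule of size or abundance. The values of 1 gene that this rule would name are not reported here. Members and lists were chosen with earlier results of these data known. The alternatives tried were scaling by total counts, by upper quartiles and by DESeq2 1.42.0, other CPM minimums (none, 5), a pseudocount of 0.5, a 1.5-fold rule, centring by lowess (statsmodels 0.14.6), and an assumed coefficient of variation of 0.2.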

Additional observations from a re-analysis of the deposited data

How the results depend on the processing

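Of the 35 genes, the number called higher was 1. It was 2 with DESeq2 size factors and with centring along mean expression (CDKN1A and PMAIP1), 3 with total counts and with centring along transcript length, an alternative added after the data were seen (CDKN1A, PMAIP1 and BBC3), 5 by the 1.5-fold rule, and 0 when a coefficient of variation of 0.2 was assumed. None was called lower except by the 1.5-fold rule, which called 3. Over all genes, 467 were higher and 92 lower. These counts were 284 and 46 with a minimum of 5 CPM, 1624 and 835 by the 1.5-fold rule, and 217 and 27 with the assumed coefficient of variation, and 150 genes were lower with no CPM minimum. PMAIP1 and BBC3 lie within a small shift of the 2-fold limit, which these scalings cross. PLK3, TP53INP1 and SESN1 had a log2 ratio whose sign differed between scalings, and their intervals include 1. No paired analysis was possible because each group has 1 library, and for the same reason no library could be left out. Depth limits SFN, SPATA18 and PHLDA3, whose intervals are wide.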
